A study of Mus musculus with 18 samples.

Results

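The genes described here are the mouse genes named Clec followed by a number and a letter, a naming series given to proteins that carry a C-type lectin domain. All such symbols with a summed count of 20 or more over 18 heart libraries were taken, which gave 28 of the 30583 genes in the count table. Clec4a4 and Clec2g, with 20 and 27 counts, lay just inside that limit, and Clec2f and Clec4b2, with 5 and 4 counts, lay just outside it. Each library came from the left ventricle of 1 male C57BL/6JR mouse aged 12 weeks. In 5 groups of 3 mice the left anterior descending coronary artery was tied to cause a myocardial infarction, and the infarcted myocardium was collected after 10 min or 1 h, after 6 h, or after 24 h or 72 h. The 3 sham mice, which the labels call the control or 0 h group, had the same operation and a suture passed but left untied. Surgery was done under sodium pentobarbital in all groups. The single sham group has no match at the later times, so time since surgery and ligation cannot be told apart.

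C-type lectin receptors are surface proteins of macrophages, neutrophils, dendritic cells, platelets and endothelium that bind sugars, lipids or proteins on microbes and on damaged cells. Several activate the cell through the kinase Syk and the adaptor Card9, either by a tyrosine motif of their own or through the adaptors FcR gamma (Fcer1g) and DAP12 (Tyrobp), while others carry an inhibitory motif that recruits the phosphatases SHP-1 and SHP-2. In injured tissue several of them are known as sensors of material released by dying cells. The label receptor does not cover every gene taken: Clec3b, Clec11a and Clec18a encode secreted proteins and Clec16a encodes an intracellular protein of mitophagy and endosome traffic.

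The 28 genes were spread over 7 chromosomes, with 21 of them on chromosome 6, and 2 tight groups of them lie there. In the GENCODE M21 annotation of GRCm38 the Dectin-2 cluster runs from Clec4a1, which starts at 122921848, to Clec4e, which ends at 123289870. The second, the Dectin-1 cluster, lies within the stretch from Clec2i, starting at 128887588, to Clec7a, ending at 129472779. Promoters of 23 of the 28 genes were found in a RefSeq table for GRCm38.p6 that gives 250 bases before and 50 bases after a start site. The following are shown for 2 genes that were high by 6 h, Clec4d and Clec4e, and for 2 that were high later, Clec4a1 and Clec12a. Each runs 5′ to 3′ on the gene's own strand, with capitals marking a C/EBP match (TTGCNNAA on either strand) or an AP-1 match (TGANTCA on either strand), and the 2 motifs do not overlap in these 4 windows.
Clec4d, chr6:123261857-123262156, plus strand: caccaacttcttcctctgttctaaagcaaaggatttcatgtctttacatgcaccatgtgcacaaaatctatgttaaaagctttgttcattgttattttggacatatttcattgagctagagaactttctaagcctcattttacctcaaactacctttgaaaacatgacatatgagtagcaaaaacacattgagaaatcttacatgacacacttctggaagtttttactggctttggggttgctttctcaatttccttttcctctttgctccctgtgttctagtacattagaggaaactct
Clec4e, chr6:123289822-123290121, minus strand: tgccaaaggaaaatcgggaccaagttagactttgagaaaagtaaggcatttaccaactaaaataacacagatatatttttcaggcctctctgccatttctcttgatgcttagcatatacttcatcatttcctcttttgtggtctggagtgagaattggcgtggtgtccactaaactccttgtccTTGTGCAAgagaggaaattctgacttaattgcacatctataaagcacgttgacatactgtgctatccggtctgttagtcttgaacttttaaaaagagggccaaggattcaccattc
Clec4a1, chr6:122921598-122921897, plus strand: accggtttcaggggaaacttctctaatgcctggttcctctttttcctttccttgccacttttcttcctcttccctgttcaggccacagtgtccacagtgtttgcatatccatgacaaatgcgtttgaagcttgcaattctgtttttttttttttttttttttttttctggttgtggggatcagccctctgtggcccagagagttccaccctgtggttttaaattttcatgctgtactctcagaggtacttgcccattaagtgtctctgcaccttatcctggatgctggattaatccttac
Clec12a, chr6:129349994-129350293, plus strand: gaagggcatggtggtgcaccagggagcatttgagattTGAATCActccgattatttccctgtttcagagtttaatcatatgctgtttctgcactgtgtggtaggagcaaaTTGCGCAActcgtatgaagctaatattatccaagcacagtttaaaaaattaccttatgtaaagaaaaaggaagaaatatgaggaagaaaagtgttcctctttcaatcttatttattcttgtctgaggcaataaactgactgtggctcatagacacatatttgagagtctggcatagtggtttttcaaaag
Clec4e held a C/EBP match that begins at base -66 from the start site. Clec12a held an AP-1 match at -213 and a C/EBP match at -140, in front of a RefSeq start that lies inside the longer GENCODE gene, which begins at 129342691. Clec4d and Clec4a1 held neither set of letters in this window. Over all 23 genes, the C/EBP letters stood in 5 promoters (21.7%), against 10.8% of the 32851 promoters in the table, and the AP-1 letters in 5 (21.7%), against 7.81%. The PU.1 letters GAGGAAGT, searched on both strands, stood in 0 of 23, against 3.2%.

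The libraries held 18.2 to 25.1 M (mega) counts on genes. The labels name cardiomyocytes as the cell type, but the tissue was not sorted, and transcripts of other cells were present: summed cardiomyocyte markers were 56250 to 61230 CPM (counts scaled to a common library size) in sham and 14880 to 19590 at 72 h. Over the same groups the summed CPM of 10 recruited monocyte and macrophage markers went from 15.7 to 18.6 in sham to 2300 to 2701 at 72 h. Summed markers of neutrophils (10 genes) were 3.03 to 4.72 in sham, with Ly6g at 0 in all 3 sham mice. They were 118 to 850 after 6 h, 49.5 to 859 after 24 h and 70.3 to 88.5 after 72 h. In 2 libraries, 6 h replicate 1 and 24 h replicate 3, the neutrophil sum stood far above that of the other mice of the group, and results that rest on these libraries are given with and without them. In bulk tissue, fewer cells of a type and less RNA per cell cannot be told apart, and the same holds for more cells and more RNA per cell.

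All 28 genes entered the count table, and 25 passed the filter on low counts. Levels are given as CPM scaled with TMM, a factor that evens out libraries of unlike composition, and differences as log2 fold changes ± standard error from edgeR's quasi-likelihood test, with p-values adjusted by Benjamini-Hochberg over 16311 genes. A gene is called changed where the adjusted p was under 0.05. Against sham, 0 of the 25 tested genes changed at 10 min (2 had an unadjusted p under 0.05) and 0 at 1 h (1 with an unadjusted p under 0.05); DESeq2, and limma on FPKM, also called 0 at both times. Among all genes, 0.0736% and 0.294% were called at these times. At 6 h, 9 of 25 changed, 7 higher and 2 lower, a share of 36% beside 28.4% of all genes (16.3% higher and 12.2% lower). At 24 h, 15 of 25 changed, 11 higher and 4 lower, which is 60% beside 43.8% of all genes (23.7% higher and 20.2% lower). At 72 h, 21 of 25 changed, 13 higher and 8 lower, which is 84% beside 66.4% of all genes (34.2% higher and 32.2% lower). The median log2 fold change of the 25 genes was 0.25 at 6 h, 0.13 at 24 h and 1.13 at 72 h, beside medians over all genes of -0.01, 0.01 and 0.03. In the test across all 6 groups, 23 of the 25 changed, beside 78.4% of all genes, and Clec2e and Clec2l did not. With library totals in place of TMM that count was 17.

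**Figure D1:**
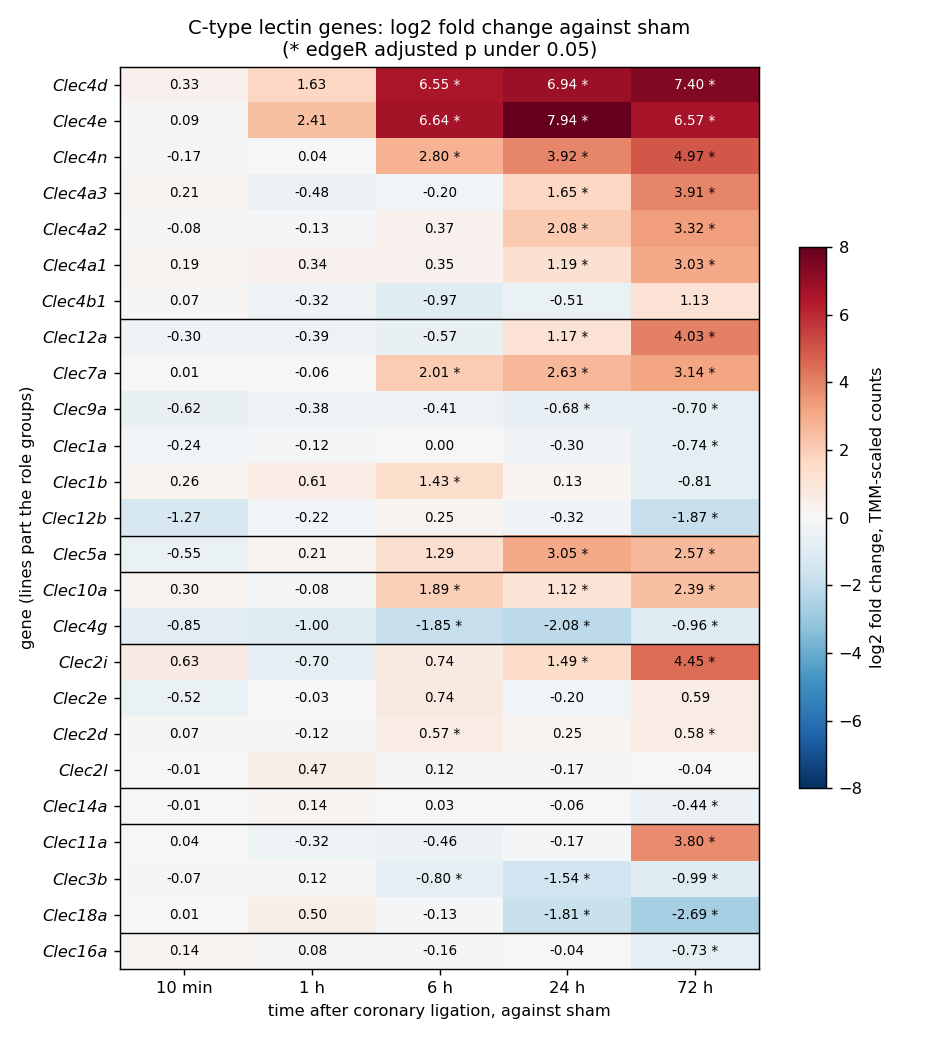
Log2 fold change of 25 C-type lectin genes (rows, with lines between role groups) against sham at 5 times after ligation (columns), from TMM-scaled counts of 3 mice a group; an asterisk marks an edgeR adjusted p under 0.05. No gene is marked at 10 min or 1 h, Clec4d and Clec4e stand at 6.55 and 6.64 by 6 h, and 21 of 25 genes are marked at 72 h.

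The split into higher and lower depended on the scaling of the libraries. With library totals in place of TMM, the log2 difference of the median gene from sham was itself -0.12 (6 h), 0.20 (24 h) and 0.61 (72 h). The counts of higher and lower genes became 5 and 3 at 6 h (7 and 2 with TMM), 12 and 3 at 24 h (11 and 4 with TMM) and 14 and 2 at 72 h (13 and 8 with TMM). The shares of all genes called higher or lower were not counted with library totals. Counts under that scaling, here and below, therefore have no background beside them. All 13 genes called higher at 72 h with TMM were higher with either scaling. Of the 8 called lower, only Clec12b and Clec18a were called with both, and Clec14a turned to 0.15 above sham with library totals. With limma on FPKM, which are scaled to library totals too, the same 6 calls ended, and that of Clec12b as well.

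**Figure D2:**
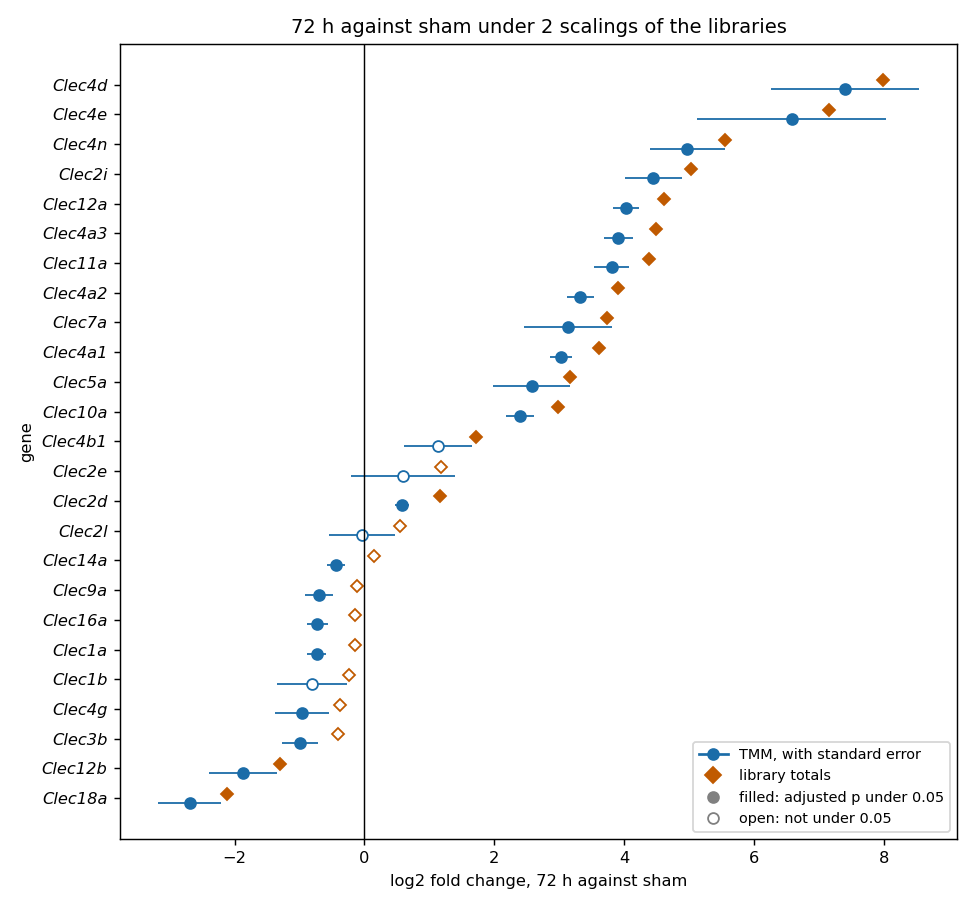
Log2 fold change at 72 h against sham for 25 genes (rows) under TMM (blue circles, bars are standard errors) and under library totals (orange diamonds); filled symbols have an edgeR adjusted p under 0.05. Every orange diamond lies to the right of its blue circle, and Clec14a, Clec9a, Clec16a, Clec1a, Clec4g and Clec3b are filled blue and open orange.

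The Dectin-2 cluster holds receptors of macrophages and neutrophils for microbial sugars and glycolipids. Of its 8 genes, 7 were tested: 3 rose by 6 h, and 6 were higher at both 24 h and 72 h, beside the 16.3%, 23.7% and 34.2% of all genes called higher. With library totals all 7 were higher at 72 h. Clec4e and Clec4d changed most. Clec4e encodes Mincle, which binds mycobacterial glycolipid and the nuclear protein SAP130 freed by dead cells. Its CPM were 0.0505, 0 and 0.133 in the 3 sham mice, from 1, 0 and 3 counts. They were 13.4, 5.88 and 1.86 at 6 h, 5.65, 3.82 and 42.9 at 24 h, and 5.58, 7.55 and 6.96 at 72 h. All mice from 6 h onward lay above all sham mice. Set against the 4 counts of the pooled sham libraries, the ratio was 104 at 6 h (95% counting interval 40.5 to 385), 233 at 24 h (90.6 to 856) and 103 at 72 h (40.2 to 380). The fitted log2 fold changes were 6.64 ± 1.46 at 6 h, 7.94 ± 1.40 at 24 h and 6.57 ± 1.45 at 72 h (adjusted p = 0.00465, 0.000605 and 0.00125). On the log2(FPKM + 1) scale, which understates changes of low genes, the call at 6 h ended with limma (1.03, adjusted p = 0.111). At 1 h its 3 mice had 3, 7 and 10 counts (CPM of 0.145, 0.414 and 0.583), all above the 3 sham mice in CPM, and this difference did not pass the test.

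Clec4d, the neighbour of Clec4e on chromosome 6, encodes MCL, a partner of Mincle at the cell surface. Its CPM were 0.0505, 0.311 and 0.178 in sham, 32.3, 13.4 and 6.33 at 6 h, 13.2, 4.84 and 50.3 at 24 h, and 27.1, 30.6 and 35.8 at 72 h. The log2 fold change against sham was 6.55 ± 1.16 at 6 h, 6.94 ± 1.15 at 24 h and 7.40 ± 1.14 at 72 h (adjusted p = 0.00121, 0.000416 and 6.36e-05). For neither Clec4d nor Clec4e did the step from 6 h to 24 h or from 24 h to 72 h pass the test. The counts of Clec4e stood at 0.194 to 0.247 of those of Clec4d in the 3 mice at 72 h, and at 0.428 to 0.853 in the 3 mice at 24 h, so the groups did not overlap in this ratio. The ratio is not scaled to exon length (4965 bases for Clec4e and 1599 for Clec4d).

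Clec4n encodes Dectin-2, a receptor for fungal mannan that signals through Fcer1g. It had a CPM of 1.01, 0.933 and 1.38 in sham, 10.9, 7.60 and 4.95 at 6 h, 11.8, 6.22 and 33.4 at 24 h, and 32.3, 29.8 and 43.2 at 72 h. Every mouse from 6 h onward was above every sham mouse. The log2 fold changes were 2.80 ± 0.59, 3.92 ± 0.57 and 4.97 ± 0.58 (adjusted p = 0.00298, 0.000133 and 2.83e-06).

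Clec7a, in the Dectin-1 cluster, and Clec5a, elsewhere on chromosome 6, shared the same mice at the top. Clec7a encodes Dectin-1, the receptor for fungal beta-glucan, and is listed in GENCODE M21 as a polymorphic pseudogene in the reference strain. Its CPM were 2.17, 2.85 and 1.42 in sham, 16.1, 7.08 and 2.82 at 6 h, 7.81, 5.09 and 27.2 at 24 h, and 18.8, 16.5 and 21.1 at 72 h. At 6 h the lowest mouse lay within the sham range, and from 24 h on the groups did not overlap. The log2 fold change was 2.01 ± 0.69 at 6 h (adjusted p = 0.0437), 2.63 ± 0.68 at 24 h (adjusted p = 0.00698) and 3.14 ± 0.68 at 72 h (adjusted p = 0.00104). The call at 6 h ended when any 1 library of the sham, 1 h or 72 h groups, 10 min replicate 2 or 3, or 6 h replicate 1 or 2 was left out, with log2 fold changes of 1.22 to 2.43 and an adjusted p of up to 0.244. It also ended with library totals (1.89, adjusted p = 0.0588), with no filter (adjusted p = 0.0979), with only the sham and 6 h libraries in the fit (adjusted p = 0.0750) and with limma on FPKM (adjusted p = 0.0544 and 0.103). Clec5a encodes MDL-1, which signals through DAP12. It had a CPM of 2.32, 2.33 and 1.82 in sham, 8.82, 4.78 and 2.29 at 6 h, 10.7, 6.04 and 37.3 at 24 h, and 10.8, 14.6 and 13.04 at 72 h. It rose at 24 h (3.05 ± 0.59, adjusted p = 0.00102) and 72 h (2.57 ± 0.59, adjusted p = 0.00138), and at 6 h the log2 difference was 1.29 ± 0.61 (adjusted p = 0.129).

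For these 5 genes, 6 h replicate 1 was the highest mouse at 6 h, and 24 h replicate 3 the highest at 24 h; the same 2 libraries had the highest neutrophil marker sums, of 850 and 859 CPM. Markers of recruited monocytes and macrophages were highest there too, at 148 CPM against 80.8 and 51.2 within the 6 h group and 919.6 against 399.6 and 360.1 within the 24 h group. So were platelet markers, at 91.6 and 130.4 CPM. The lowest mice were also shared, 6 h replicate 3 and 24 h replicate 2, which had the lowest neutrophil sums, of 118 and 49.5 CPM, and the lowest sums of the other 2 lists. Within the 24 h group, the highest mouse exceeded the lowest 11.2-fold for Clec4e, 10.4-fold for Clec4d, 6.16-fold for Clec5a, 5.38-fold for Clec4n and 5.35-fold for Clec7a. At 72 h these spreads were 1.28-fold to 1.45-fold, with neutrophil sums of 70.3 to 88.5 CPM. Without 24 h replicate 3 the mean CPM at 24 h dropped from 17.4 to 4.73 for Clec4e, from 22.8 to 9.02 for Clec4d, from 17.98 to 8.35 for Clec5a, from 17.2 to 9.02 for Clec4n and from 13.4 to 6.45 for Clec7a. Without 6 h replicate 1 the mean at 6 h dropped from 7.05 to 3.87 for Clec4e, from 17.3 to 9.86 for Clec4d and from 8.66 to 4.95 for Clec7a. With both libraries left out, a choice made after their marker sums were seen, the 5 genes kept every call listed above, with log2 fold changes at 6 h of 5.80 for Clec4e, 5.75 for Clec4d and 1.23 for Clec7a, and at 24 h of 6.07 for Clec4e, 5.60 for Clec4d, 3.00 for Clec4n, 1.95 for Clec5a and 1.59 for Clec7a. The part of neutrophil, monocyte or platelet content in these levels was not tested.

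**Figure D3:**
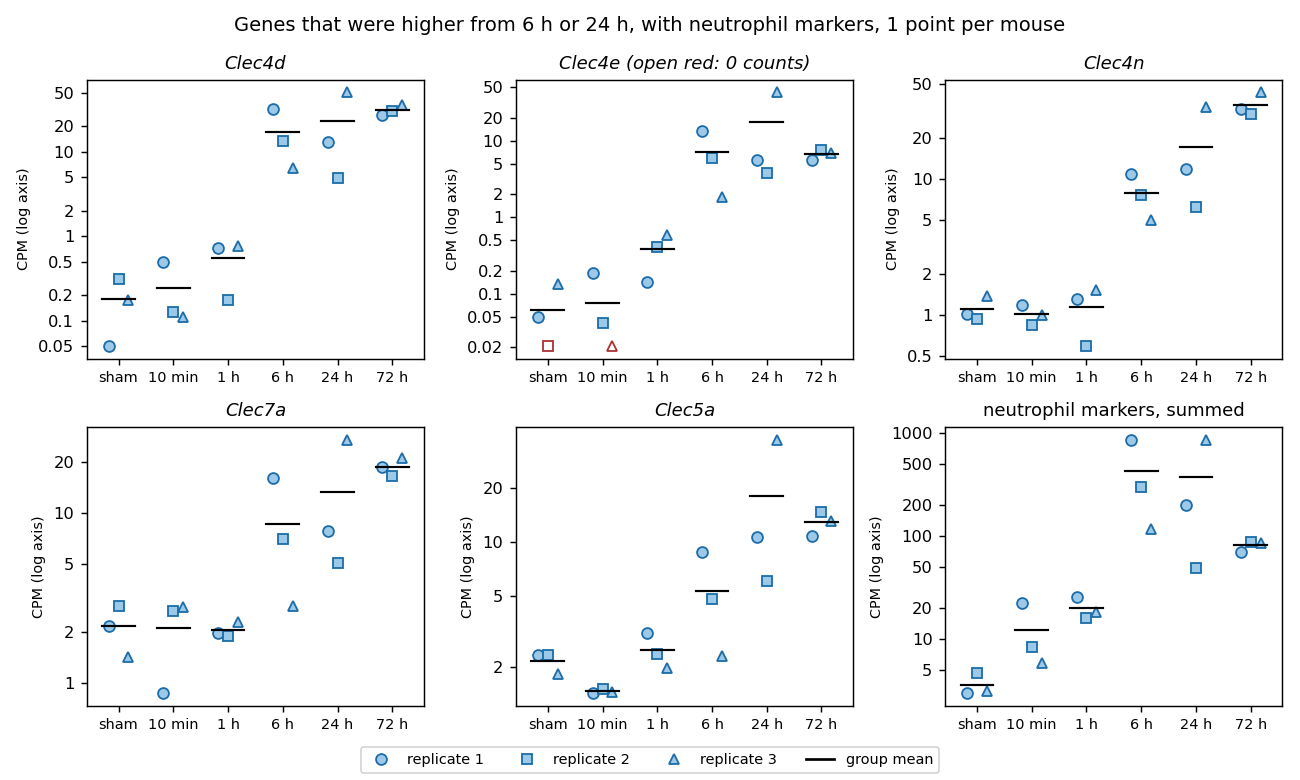
CPM on log axes in each of 18 mice (points, with the replicate number as the shape) and group means (bars) for Clec4d, Clec4e, Clec4n, Clec7a and Clec5a, and the summed CPM of 10 neutrophil markers. In all 6 panels replicate 1 is highest at 6 h and replicate 3 at 24 h, and the 3 mice at 72 h lie close together.

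Clec4a1, Clec4a2 and Clec4a3, of the same cluster, rose later, and their mice lay closer together. Clec4a2 encodes DCIR, which carries an inhibitory motif, and Clec4a1 and Clec4a3 are its close relatives. The CPM of Clec4a3 were 1.36, 1.81 and 1.86 in sham, 1.43, 1.63 and 1.33 at 6 h, 5.18, 5.73 and 4.95 at 24 h, and 25.5, 22.9 and 27.7 at 72 h. Those of Clec4a2 were 1.77, 2.28 and 1.86 in sham, 2.20, 2.53 and 2.87 at 6 h, 7.68, 7.92 and 9.53 at 24 h, and 17.8, 19.2 and 22.2 at 72 h. Both overlapped sham at 6 h and stood apart from it at 24 h and again, higher, at 72 h. Clec4a3 changed by 1.65 ± 0.22 at 24 h and 3.91 ± 0.22 at 72 h (adjusted p = 2.53e-05 and 9.03e-11). Clec4a2 changed by 2.08 ± 0.20 and 3.32 ± 0.21 (adjusted p = 1.16e-06 and 2.35e-10), and Clec4a1 by 1.19 ± 0.17 and 3.03 ± 0.17 (adjusted p = 3.86e-05 and 6.04e-11). The step from 24 h to 72 h also passed the test for each: 2.26 for Clec4a3, 1.84 for Clec4a1 and 1.24 for Clec4a2. At 24 h their 3 mice differed by no more than 1.24-fold. Clec4a2 shares 10.9% of its 31-base words with other genes, Clec4a1 0%, and Clec4a3 2.19%.

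Clec4b1, which shares 19.0% of such words, stayed low, at 0.387 ± 0.050 CPM in sham and 0.859 ± 0.350 at 72 h (SD, n = 3), and did not pass the test against sham at 72 h (1.13, adjusted p = 0.0629). That difference was called with library totals (1.71, adjusted p = 0.00648), only the sham and 72 h libraries (adjusted p = 0.0238), limma on FPKM (adjusted p = 0.00169 and 0.0132) or the 2 neutrophil-rich libraries left out (adjusted p = 0.0397). Clec4b1 was higher at 72 h than at 24 h (1.64 ± 0.53, adjusted p = 0.0157), a call that ended without 24 h replicate 1 or 3 or 72 h replicate 1 or 3, with log2 differences of 1.22 to 2.82 over all fits that left out 1 library. It also ended with only the libraries compared (adjusted p = 0.0692). Clec4a4, with 0, 1 and 0 counts in sham and 5, 2 and 4 at 72 h, was too low to test. Summed over the 8 genes of the cluster, the CPM were 6.92 to 8.61 in sham, 20.8 to 63.5 after 6 h, 35.2 to 146 after 24 h and 129 to 158 after 72 h.

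In the Dectin-1 cluster the 6 genes moved in both directions: 2 rose at 6 h, 2 rose and 1 fell at 24 h, and 2 rose and 3 fell at 72 h, beside 16.3% higher at 6 h, 23.7% higher and 20.2% lower at 24 h, and 34.2% higher and 32.2% lower at 72 h over all genes. With library totals the counts were 0 higher and 1 lower at 6 h, 2 and 0 at 24 h, and 2 and 1 at 72 h. Clec12a encodes MICL, an inhibitory receptor of myeloid cells that binds uric acid crystals. Its CPM were 3.18, 2.18 and 2.49 in sham, 2.32, 1.72 and 1.28 at 6 h, 4.83, 6.15 and 6.65 at 24 h, and 42.4, 38.2 and 47.4 at 72 h. The 24 h and 72 h groups lay wholly above sham and apart from each other. It changed by 1.17 ± 0.20 at 24 h and 4.03 ± 0.20 at 72 h (adjusted p = 0.000235 and 1.73e-11), and by 2.86 ± 0.19 from 24 h to 72 h (adjusted p = 1.30e-09). At 6 h the log2 difference was -0.57 ± 0.23 (adjusted p = 0.0747), and it passed the test in the other direction from Clec7a with library totals (-0.68, adjusted p = 0.0444) or with the 2 neutrophil-rich libraries left out (-0.79, adjusted p = 0.0260). Counts of Clec12a were 1.465, 0.764 and 1.75 times those of Clec7a in the 3 sham mice. They were 0.144, 0.243 and 0.453 of those of Clec7a in the 3 mice at 6 h and 2.25, 2.32 and 2.25 times them at 72 h. Where Clec7a was highest at 24 h, in replicate 3, that ratio was 0.244, and it was 0.619 and 1.21 in the other mice. These ratios are not scaled to exon length (5528 bases for Clec12a and 2638 for Clec7a). Per length, the means at 72 h were 10.8 FPKM for Clec12a and 9.93 for Clec7a.

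**Figure D4:**
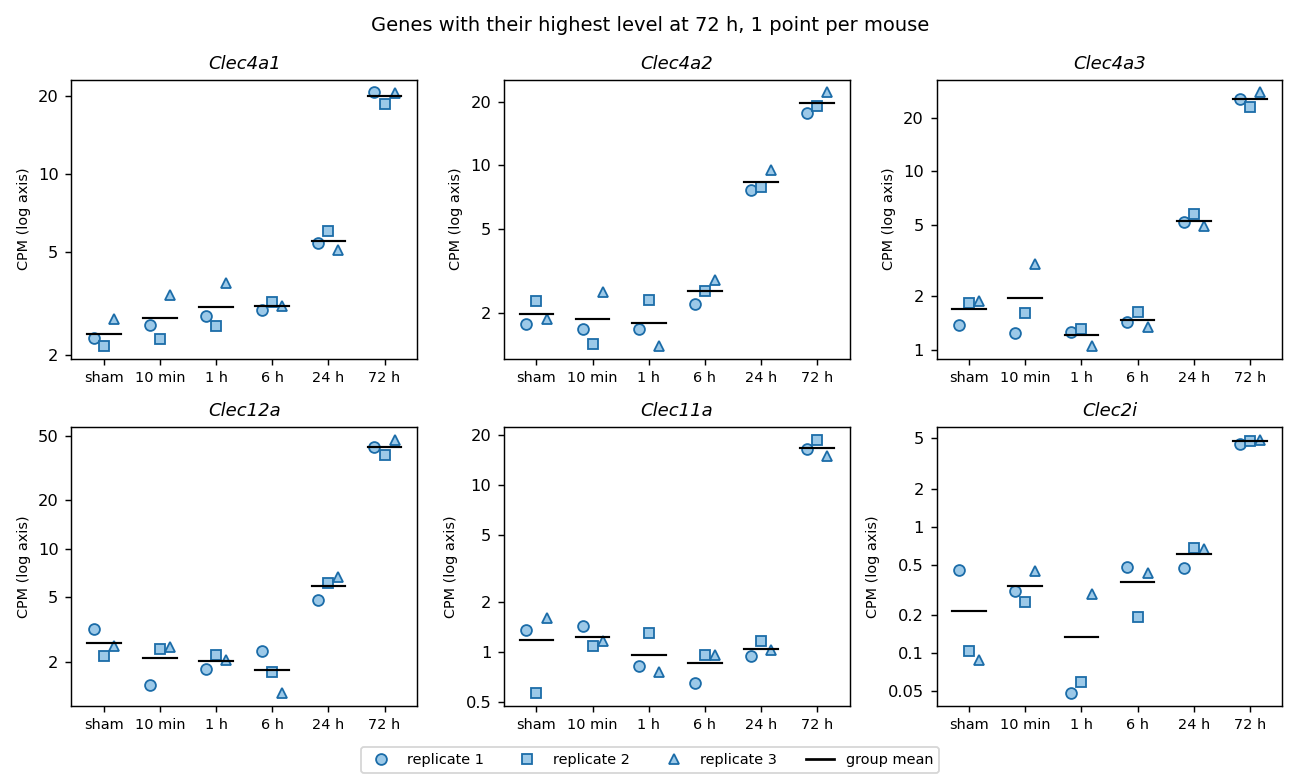
CPM on log axes in each of 18 mice (points, with the replicate number as the shape) and group means (bars) for Clec4a1, Clec4a2, Clec4a3, Clec12a, Clec11a and Clec2i. The 3 mice at 72 h lie above all other mice in every panel, and the 3 mice at 24 h lie close together in every panel.

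Clec9a encodes DNGR-1, the receptor of cross-presenting dendritic cells for the actin of dead cells. Its CPM were 3.64, 4.30 and 4.26 in sham, 2.59, 2.72 and 2.27 at 24 h, and 2.74, 2.13 and 2.64 at 72 h, and neither later group overlapped sham. The mice at 10 min (2.098 to 3.516) and 6 h (2.678 to 3.407) also all lay below every sham mouse. Those at 1 h (2.663 to 3.958) overlapped sham. The mean was 2.66 at 10 min, 2.526 at 24 h and 2.504 at 72 h. At 10 min the log2 difference was -0.62 (adjusted p = 0.508), so whether the level was lower that early is not settled. Clec9a was called lower at 24 h (-0.68 ± 0.22, adjusted p = 0.0155) and 72 h (-0.70 ± 0.21, adjusted p = 0.00711), and not at 10 min, 1 h or 6 h. The 24 h call ended without 24 h replicate 3 (-0.61, adjusted p = 0.0559), and both ended with library totals (-0.49 and -0.12) and with limma on FPKM. Summed markers of conventional dendritic cells, of which 7 of 8 rose and 1 fell at 72 h, were 26.2 to 29.6 CPM in sham and 53.6 to 56.4 at 72 h. Zbtb46, the 1 that fell, made up most of the sum in sham (mean CPM of 23.0, and 12.7 at 72 h). Wdfy4 was the largest part at 72 h (29.6, and 3.43 in sham), and Xcr1 went from 0.325 to 0.864. Clec1b encodes CLEC-2, the platelet receptor for podoplanin. It had a CPM of 0.909, 0.933 and 1.07 in sham and 5.00, 1.15 and 1.81 at 6 h, and its call at 6 h (1.43 ± 0.50, adjusted p = 0.0416) rested on 6 h replicate 1. Without that mouse the log2 difference was 0.60 (adjusted p = 0.404), and the call also ended when any 1 library of sham, 1 h or 72 h was left out. It ended too with library totals (1.295, adjusted p = 0.0512), no filter (adjusted p = 0.05001), only the sham and 6 h libraries (adjusted p = 0.0795) or limma on FPKM (adjusted p = 0.0960 and 0.109). That mouse also had the highest platelet marker sum at 6 h, 91.6 CPM against 30.7 and 38.7. At 24 h and 72 h Clec1b did not change against sham (0.13 and -0.81), while summed platelet markers stood at 161 to 183 CPM at 72 h against 21.2 to 23.1 in sham. Of the 7 platelet markers tested, 4 were higher at 72 h, and Pf4 made up most of the sum, with mean CPM of 15.3 in sham and 135 at 72 h; Itga2b, Gp9 and Treml1 did not pass the test. With only the sham and 72 h libraries in the fit, Clec1b was called lower (-0.80, adjusted p = 0.0267). The exons of Clec1b and Clec9a overlap by 184 bases on the same strand, so their counts are not fully separate.

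Clec1a, found on endothelial and myeloid cells, and Clec12b, an inhibitory receptor, were lower at 72 h. The CPM of Clec1a were 15.9, 19.95 and 20.9 in sham and 11.2, 12.3 and 10.7 at 72 h (-0.74 ± 0.14, adjusted p = 0.000159), a call that ended with library totals (-0.15). Those of Clec12b were 1.36, 0.363 and 1.15 in sham and 0.315, 0.183 and 0.286 at 72 h (-1.87 ± 0.52, adjusted p = 0.00416), and this call held with library totals but ended with limma on FPKM (adjusted p = 0.0647 and 0.0679). The 3 mice at 72 h lay below all sham mice for both genes. Summed CPM of the 6 genes of the cluster were 27.2 to 31.3 in sham and 69.9 to 82.6 at 72 h.

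Clec10a, Clec4g and Clec4f are of the asialoglycoprotein receptor type, which takes up galactose- or mannose-bearing proteins. Clec10a encodes MGL1, a lectin of tissue macrophages. It had a CPM of 2.02, 2.28 and 1.91 in sham, 5.78, 9.28 and 7.88 at 6 h, 4.18, 4.88 and 4.38 at 24 h, and 11.7, 8.85 and 12.1 at 72 h. The 3 later groups lay wholly above sham, the 24 h group lay below the other 2, and the 6 h and 72 h groups overlapped. The changes against sham were 1.89 ± 0.22, 1.12 ± 0.22 and 2.39 ± 0.22 (adjusted p = 1.31e-05, 0.000686 and 2.56e-08). From 6 h to 24 h it changed by -0.77 ± 0.21 (adjusted p = 0.00932), a call that ended without 6 h replicate 2 (-0.61, adjusted p = 0.0538) with library totals (-0.47, adjusted p = 0.0964), with only the libraries compared (adjusted p = 0.0677) and with limma on FPKM (adjusted p = 0.0946 and 0.132). From 24 h to 72 h it rose by 1.28 ± 0.20 (adjusted p = 4.00e-05). At 6 h the mouse with the most neutrophil markers, replicate 1, was the lowest for Clec10a. Summed resident macrophage markers were 219 to 265 CPM in sham, 295 to 384 after 6 h, 365 to 371 after 24 h and 1245 to 1536 after 72 h. Of these 10 markers, 7 were higher and 2 lower at 72 h; C1qa and C1qb, with mean CPM of 539 and 529.5, made up most of the sum, while Lyve1 (-1.09, adjusted p = 0.00424) and Timd4 (-1.23, adjusted p = 0.00811) were lower and Cd163 was at 0.05. With library totals 8 were higher and 0 lower. Clec10a shares 14.9% of its 31-base words with other genes, Mgl2 among them, and Mgl2 itself was lower at 72 h (-0.88, adjusted p = 0.0298), a call that ended with library totals (-0.30).

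Clec4g encodes LSECtin, a lectin of sinusoidal endothelium. It was low throughout: its CPM were 0.808, 0.622 and 0.888 in sham, 0.0596, 0.287 and 0.266 at 6 h, 0.0863, 0.318 and 0.103 at 24 h, and 0.441, 0.243 and 0.509 at 72 h. Every mouse at these times lay below every sham mouse. So did every mouse at 10 min (0.373, 0.504 and 0.391) and 1 h (0.338, 0.473 and 0.3496), though neither difference was called. The means were 0.423 at 10 min, 0.387 at 1 h and 0.398 at 72 h, so the lower level was not confined to 6 h and later. Clec4g was called lower at 6 h (-1.85 ± 0.49, adjusted p = 0.00927), a call that ended without 6 h replicate 1 (-1.47, adjusted p = 0.0515), and at 24 h (-2.08 ± 0.48, adjusted p = 0.00226). At 72 h the adjusted p was 0.04998 (-0.96 ± 0.42), and the call ended with library totals, RLE factors, DESeq2, limma on FPKM or no filter. It also ended when any 1 library of sham, 10 min or 1 h, 6 h replicate 2 or 3, or 72 h replicate 1 or 2 was left out, with log2 differences of -0.70 to -1.17 and an adjusted p of up to 0.190. Clec4g overlaps the antisense gene Gm16553 by 146 exon bases, and whether counting used strand is not given in the sources used here. Clec4f, a Kupffer cell receptor, had 1 to 11 counts per library outside the 72 h group and 3, 0 and 1 within it, and was not tested.

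Several of the Clec2 genes encode ligands that engage receptors of the NKR-P1 family on natural killer cells, and the whole series is grouped here by name. Clec2d was the most abundant, with a CPM of 44.8, 47.0 and 41.4 in sham, 57.9, 71.2 and 68.9 at 6 h, 48.7, 52.3 and 57.2 at 24 h, and 72.9, 60.2 and 66.1 at 72 h. It was higher at 6 h (0.57 ± 0.11, adjusted p = 0.000758) and 72 h (0.58 ± 0.11, adjusted p = 9.85e-05). At 24 h the log2 difference from sham was 0.25 ± 0.11 (adjusted p = 0.0672), which passed with library totals (0.45, adjusted p = 0.00431). Clec2i had a CPM of 0.455, 0.104 and 0.0888 in sham, 0.474, 0.672 and 0.670 at 24 h, and 4.51, 4.81 and 4.90 at 72 h. The 72 h mice stood apart from all others, with a log2 fold change of 4.45 ± 0.44 (adjusted p = 7.40e-08). Its call at 24 h (1.49 ± 0.52, adjusted p = 0.0264) ended without sham replicate 2 or 3 or 24 h replicate 2 or 3, with log2 differences of 1.09 to 2.59 and an adjusted p of up to 0.128, and with only the sham and 24 h libraries in the fit (adjusted p = 0.0789). Clec2e and Clec2l lay between 0 and 0.574 CPM and between 0.178 and 0.592 CPM over all 18 libraries, and neither passed the test in any comparison. Clec2g, with 13.7% of its 31-base words shared, had 0 counts in every library up to 6 h, then 2, 0 and 5 at 24 h and 7, 11 and 2 at 72 h, and was not tested. Clec2d and Clec2i share 11.8% and 11.3% of their words with other genes.

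The 3 secreted proteins differed from each other. Clec11a encodes a growth factor of bone and blood-forming progenitors, also called osteolectin. It had a CPM of 1.36, 0.570 and 1.60 in sham, 0.949, 1.17 and 1.03 at 24 h, and 16.3, 18.7 and 15.0 at 72 h. It overlapped sham at every time but 72 h, when it was 3.80 ± 0.26 higher on the log2 scale (adjusted p = 9.73e-10). Summed fibroblast markers were 684 to 756 CPM in sham, 738 to 1021 at 24 h and 8385 to 10880 at 72 h. The collagens Col3a1 (mean CPM of 135 in sham and 5063 at 72 h) and Col1a1 (74.3 and 3547) made up most of the sum at 72 h. The other means went from 40.1 to 79.2 for Pdgfra, 411.5 to 513.4 for Dcn, 42.9 to 193.9 for Lum and 12.6 to 30.9 for Tcf21. Clec3b encodes tetranectin, which binds plasminogen. Its CPM were 44.1, 42.4 and 44.4 in sham, 26.9, 26.1 and 22.4 at 6 h, 20.96, 16.0 and 7.63 at 24 h, and 29.8, 13.7 and 22.6 at 72 h. The 3 later groups lay wholly below sham. The log2 changes were -0.80 ± 0.28, -1.54 ± 0.28 and -0.99 ± 0.27 (adjusted p = 0.0435, 0.000585 and 0.00526). The first call ended in 13 of 18 fits that left out 1 library (any of sham, 10 min, 1 h or 6 h, or 72 h replicate 3; -0.72 to -0.85, adjusted p of up to 0.117) and with no filter (adjusted p = 0.112), and the third with library totals (-0.40, adjusted p = 0.185) and with limma on FPKM. The lowest mouse at 24 h was replicate 3, which also had the least cardiomyocyte signal there, 24360 CPM against 37020 and 38110. It had the lowest fibroblast sum too (738.3 against 771.3 and 1021), and the highest neutrophil (859) and recruited monocyte and macrophage (919.6) sums of that group. The part of any of these in the level of Clec3b was not tested.

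Clec18a was low and fell. Its CPM were 1.52, 0.881 and 1.11 in sham, 0.561, 0.141 and 0.309 at 24 h, and 0.158, 0.243 and 0.127 at 72 h, with no overlap, and the log2 changes were -1.81 ± 0.47 and -2.69 ± 0.49 (adjusted p = 0.00458 and 8.50e-05). For Clec14a, an endothelial receptor for the matrix protein Mmrn2, and the intracellular Clec16a, no call was made before 72 h. The CPM of Clec14a were 31.3, 29.1 and 34.2 in sham and 21.2, 24.9 and 23.8 at 72 h, and those of Clec16a were 47.6, 47.4 and 51.3 in sham and 31.5, 30.5 and 26.5 at 72 h. Both were lower at 72 h with TMM (-0.44 ± 0.14, adjusted p = 0.0107, and -0.73 ± 0.16, adjusted p = 0.000642), and with library totals the values were 0.15 for Clec14a and -0.14 for Clec16a and neither was called. Endothelial marker sums were 1331 to 1466 CPM in sham and 832 to 1067 at 72 h, with 7 of 8 markers lower with TMM and 1 of 8 lower and 1 higher with library totals.

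Between groups that follow each other in time, 0 of 25 genes differed between 10 min and 1 h (1 with an unadjusted p under 0.05; 0 with DESeq2 or limma), beside 0.307% of all genes. From 1 h to 6 h, 7 differed, 28% beside 24.5% of all genes (14.5% higher and 10% lower): Clec4d, Clec4e, Clec4n, Clec7a, Clec10a and Clec2d were higher and Clec3b lower. The call of Clec7a ended in 14 of 18 fits that left out 1 library (adjusted p of up to 0.247). It also ended with library totals (adjusted p = 0.0617), no filter, only the libraries compared and limma on FPKM. That of Clec4e ended without 1 h replicate 1 or 2 or 6 h replicate 1, and with limma on log2(FPKM + 1) (adjusted p = 0.156). That of Clec3b ended without 1 h replicate 1 or 2 or any 1 library of the 6 h group, and with no filter (adjusted p = 0.0759). From 6 h to 24 h, 8 differed, 32% beside 27.8% (14.2% higher and 13.7% lower). Clec12a, Clec4a1, Clec4a2, Clec4a3 and Clec5a were higher, and Clec10a, Clec18a and Clec2d lower. The call of Clec5a here (1.76 ± 0.55, adjusted p = 0.0271) ended without 24 h replicate 3 (0.66), without 6 h replicate 2 or 3, with no filter (adjusted p = 0.0686) and with only the libraries compared (adjusted p = 0.253). That of Clec2d ended without 6 h replicate 2 or 3 or 24 h replicate 1 or 2, and that of Clec18a without 6 h replicate 1 or 3 or 24 h replicate 2, with log2 differences of -0.25 to -0.41 and -1.26 to -2.27. With library totals or limma on FPKM the difference of Clec2d was -0.02 (adjusted p = 0.888 with library totals), against -0.32 with TMM, and with only the libraries compared neither Clec2d nor Clec18a was called. From 24 h to 72 h, 13 differed, 52% beside 50.5% (24.4% higher and 26.1% lower), with 9 higher and 4 lower. The higher genes were Clec10a, Clec11a, Clec12a, Clec2d, Clec2i, Clec4a1, Clec4a2, Clec4a3 and Clec4b1, and the lower ones Clec12b, Clec14a, Clec16a and Clec1a. With library totals the split was 7 higher and 1 lower from 6 h to 24 h and 12 higher and 0 lower from 24 h to 72 h. Under that scaling the median gene itself differed by 0.325 from 6 h to 24 h and 0.364 from 24 h to 72 h. The shares of all genes given above are those with TMM. These comparisons share groups with those against sham, so they are not independent of them.

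Levels can be compared between genes only per length, as FPKM, fragments scaled to exon length and library total. In sham, Clec3b (40.8 ± 2.06, SD, n = 3) and Clec2d (33.9 ± 1.22) were the highest of the 28 genes and held 40.8% and 33.8% of their summed FPKM of 100.2. Clec14a, at 6.41 ± 0.71, followed. The sum was 110.7 at 6 h, 136.9 at 24 h and 284.1 at 72 h. At 72 h Clec2d led with 76.2 ± 6.54, followed by Clec4n with 34.5 ± 7.88, Clec3b with 30.9 ± 10.9, Clec4d with 27.2 ± 4.60 and Clec4a3 with 26.7 ± 3.02. The SD ranges of the last 4 of these overlapped. Clec4e reached only 1.88 ± 0.31 FPKM at 72 h and 3.72 ± 4.71 at 24 h. Since FPKM are scaled to library totals, Clec14a stood at 7.09 ± 0.71 FPKM at 72 h, above its sham mean.

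**Figure D5:**
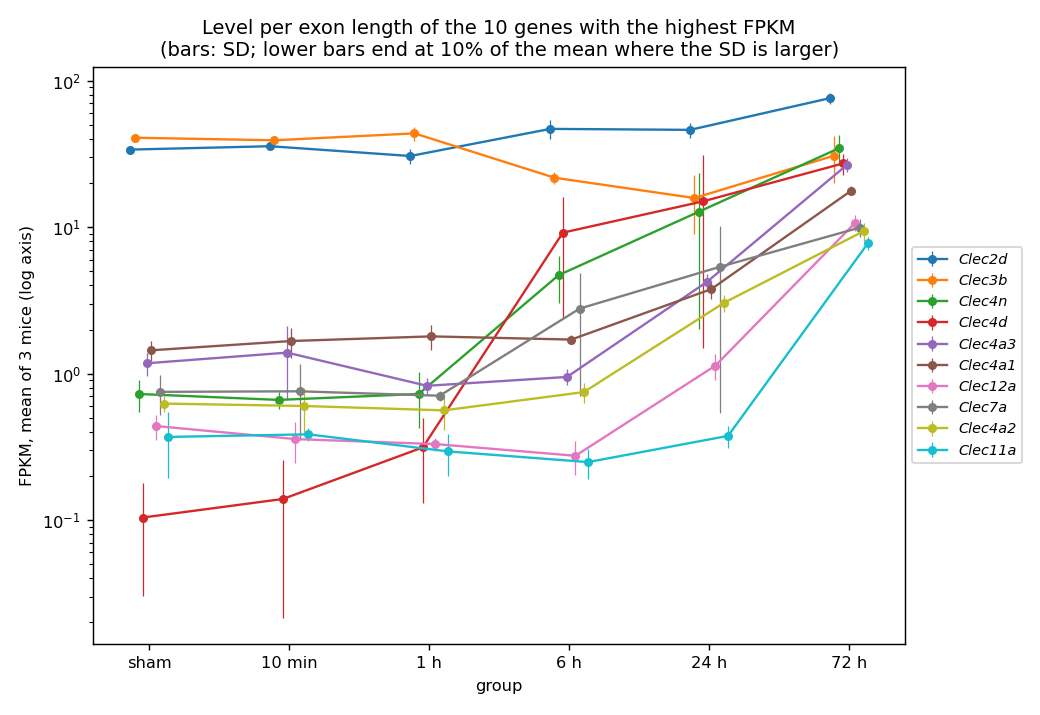
FPKM (log axis, mean of 3 mice, bars are SD) by group for the 10 genes with the highest group mean. Clec3b and Clec2d lie far above the rest in sham, and by 72 h Clec4n, Clec4d and Clec4a3 have reached the level of Clec3b.

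The partners of these receptors were counted on lists chosen with the genes. Of 13 genes of receptor signalling, 9 were higher and 0 lower at 6 h, 11 and 0 at 24 h, and 11 and 1 at 72 h, with medians of 0.84, 1.61 and 2.33. Of all genes, 16.3%, 23.7% and 34.2% were called higher at these times and 12.2%, 20.2% and 32.2% lower, the background for each list named here. The 3 with the smallest adjusted p at 72 h were Plcg2 (1.79), a phospholipase downstream of Syk, Fcer1g (3.93), the adaptor of Mincle and Dectin-2, and Ptpn6 (3.55), which encodes SHP-1. Fcer1g stood at 8.03 ± 1.56 CPM in sham, 22.1 ± 8.23 at 6 h, 46.5 ± 20.1 at 24 h and 123 ± 6.15 at 72 h (SD, n = 3). The 1 lower gene, Ptpn11, named after its value was seen, encodes SHP-2 (-0.53), and with library totals it was at 0.06 and not called. Of 5 tested of 9 ligands and partners, 2 were higher and 2 lower at 6 h, 3 and 1 at 24 h, and 4 and 1 at 72 h. Among them, Itga11, the integrin bound by osteolectin, was lower at 6 h (-0.99, adjusted p = 0.00729) and higher at 72 h (2.30). Pdpn, the podoplanin that CLEC-2 binds, was higher at both times (2.53 and 3.21). Klrb1b, a receptor for Clec2d, had 0 counts in the 3 sham mice and a mean of 0.814 CPM at 72 h, at least 5.55-fold higher than 3 counts per sham library would give. Its mean was 0.185 CPM at 6 h and 0.381 at 24 h, so it passed the low-count filter through the 72 h group. Its place among the 4 higher genes of 5 tested therefore depended on its being high there. The 1 lower at 72 h, named after its value was seen, was Mmrn2, the ligand of Clec14a (-0.85, and -0.27 and not called with library totals). Of 18 tested of 26 other receptors with C-type lectin domains, 9 were higher and 3 lower at 6 h, and 9 and 1 at 24 h. At 72 h 16 were higher and 2 lower, with a median of 1.97. The 3 with the smallest adjusted p at 72 h were Mrc2 (2.33), Mrc1 (2.45) and Cd248 (1.66). At 6 h Mrc2 (-0.60, adjusted p = 0.00331) and Cd248 (-0.47, adjusted p = 0.0180) were lower, and Mrc1 was higher (0.90, adjusted p = 0.000523).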

How the data were processed

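RNA-seq counts and FPKM per gene were used from 18 mouse heart libraries, 1 per mouse and 3 per group. Per the labels' protocols, poly(A) RNA was captured with oligo dT and converted with a NEBNext kit. The submitters' processing notes name cutadapt 1.18, HISAT2 2.1.0, featureCounts and the build mm10; the use of strand in counting is not given in the sources used here. The authors deposited whole-number counts and, separately, FPKM values, scaled to exon length and library total. The FPKM columns of 6 h replicates 2 and 3 were exchanged relative to the counts, so FPKM was used only for group means, SDs and limma fits by group, which an exchange within a group does not alter. Ensembl IDs were matched to symbols (30489 of 30583).

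Counts were fitted with edgeR 4.0.16 in R 4.3.3 (TMM, filterByExpr, robust quasi-likelihood, all 18 libraries, 1 mean per group). The filter left 16311 genes and removed 14272, and the biological coefficient of variation was 0.149. FPKM alternatives used limma 3.58.1 with pseudocounts of 1 and 0.1, and DESeq2 1.42.0 was another alternative. The code was checked on simulated counts. Library depth was 18.2 to 25.1 M (mega) counts, with TMM factors of 0.825 to 1.43; counting intervals cover counting error only. The labels give no batch.

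The genes and lists were chosen with earlier results of these data known. Values per mouse were given for up to 5 genes of each role group, those called across groups with the largest change against sham, and for every gene called lower; from each partner list, 3 genes were named, those with the lowest adjusted p at 72 h. Shared 31-base words were counted over GENCODE M21 transcripts. Alternatives were library totals, RLE factors, no filter or at least 10 counts in every library, a replicate block, only the libraries compared, and leaving out each library.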

Additional observations from a re-analysis of the deposited data

How the results depend on the processing

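No count of changed genes differed from 0 at 10 min or 1 h under any alternative run. Leaving out 1 library at a time gave 6 to 10 changed genes at 6 h, 13 to 17 at 24 h and 20 to 22 at 72 h against sham. It gave 0 to 0 at 10 min, at 1 h and from 10 min to 1 h, 4 to 8 from 1 h to 6 h, 5 to 9 from 6 h to 24 h, 10 to 15 from 24 h to 72 h, and 20 to 23 across all groups. The lowest count from 1 h to 6 h came without 1 h replicate 1 or 2 or 6 h replicate 1, and the lowest from 6 h to 24 h without 6 h replicate 3. A fit of only the libraries compared called 4 genes from 6 h to 24 h in place of 8. With at least 10 counts required in every library, which leaves out the genes near 0 in sham, 15 genes in place of 23 changed across groups. Among the Clec genes called, the direction turned for Clec14a only: at 72 h against sham it was 0.15 with library totals, 0.15 with limma on log2(FPKM + 0.1) and 0.13 with limma on log2(FPKM + 1), and from 24 h to 72 h it was 0.0065, 0.021 and 0.0175.

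The replicate numbers did not pair the mice: over 45 pairs of groups the median correlation of same-numbered mice was 0.035, with 4 over 0.1. A fit with the replicate block called 0 genes at 10 min and 1 h, 8 at 6 h, 15 at 24 h and 20 at 72 h, 0 from 10 min to 1 h, 6 from 1 h to 6 h, 8 from 6 h to 24 h, 14 from 24 h to 72 h, and 23 across groups. With the block the adjusted p was 0.0648 for Clec7a at 6 h, 0.0602 for Clec4g at 72 h, 0.0662 for Clec7a from 1 h to 6 h and 0.0606 for Clec5a from 6 h to 24 h, 4 calls that the fit without it made. Genes under about 1 CPM, such as Clec4b1, Clec2e, Clec2l and Clec4g, rest on few counts, and depth limits what can be seen of them.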

Other observations

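Selp and Sele, endothelial adhesion receptors with C-type lectin domains that slow leukocytes on the vessel wall, had their highest means at 6 h. They were picked after their values were seen and are given as values. Selp, of platelets and endothelium, had a mean CPM of 0.173 ± 0.158 in sham, 18.5 ± 9.61 at 6 h, 6.67 ± 5.78 at 24 h and 4.10 ± 0.883 at 72 h (SD, n = 3). Sele, of activated endothelium, had 1.53 ± 0.636, 20.3 ± 9.20, 7.70 ± 2.58 and 3.06 ± 0.508. Both passed edgeR's test against sham at 6 h, 24 h and 72 h, with log2 fold changes at 6 h of 6.66 and 3.72 (adjusted p = 7.85e-05 and 7.40e-06). Cd209a, a mouse relative of the human dendritic cell lectin DC-SIGN, rose at each of these times instead, with 0.0999 ± 0.0537 CPM in sham, 0.624 ± 0.362 after 6 h, 1.91 ± 0.315 after 24 h and 3.62 ± 0.0815 after 72 h. Its log2 fold change at 72 h was 5.13 (adjusted p = 3.49e-08).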
